A study of Mus musculus with 8 samples.

Results

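The Klf6 locus was taken as the Foxk1 peaks whose summits lie between 5.7 and 6.0 Mb of mouse chromosome 13 on the mm9 assembly, a window of 300 kb that holds Klf6 near 5.86 Mb. The peaks were chosen by the position of their summits alone, and 18 of the 28933 peaks in the deposited list fell in the window. Foxk1 binding had been mapped by chromatin immunoprecipitation followed by sequencing (ChIP-seq) in untreated mouse embryonic fibroblasts (MEFs) kept in DMEM, with 3 libraries from a Foxk1 antibody, 3 from control IgG and 2 from input chromatin, which saw no antibody. The labels give no genotype, strain or embryonic age and do not say whether the libraries came from separate cultures. The single list gave 1 signal value and 1 q-value per peak for Foxk1 against input, so no value below has a replicate error, and IgG enrichment was not analysed here. How deeply each library was sequenced is not known from the sources used here. The identity of the cells could not be checked, because a peak list holds no expression values.

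Klf6 is a member of the Krüppel-like factors, transcription factors that bind GC-rich DNA through zinc fingers at their carboxyl end. It is an early response gene that is induced by serum and tissue injury, and it is known in fibroblasts and hepatic stellate cells for its part in wound and matrix responses. Foxk1 is a forkhead transcription factor, known for holding down autophagy genes and for raising glycolysis genes in muscle and fibroblasts. A ChIP-seq peak marks where fragments pulled down with the antibody pile up, and it does not say whether the gene nearby is switched on or off.

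The gene position used here, 5.86 Mb, is rounded to 10 kb, and the peak list itself names no gene. A gene annotation of mm9 was not used here, so a peak is described by its distance from that mark and not as promoter, exon or intron. RefSeq places Klf6 (gene ID 23849) on the plus strand of chromosome 13 in the GRCm38.p6 assembly. Lower coordinates are thus the upstream side, if mm9 has the same orientation. In the order of protein-coding genes of that table, Klf6 stands between Akr1e1, an aldo-keto reductase gene, and Pitrm1, which encodes a mitochondrial peptidase. Beyond Pitrm1 comes Pfkp, the platelet isoform of phosphofructokinase, a glycolytic enzyme. Several long noncoding RNA genes without assigned roles lie between Klf6 and its coding neighbours.

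The promoter of Klf6 is shown because the densest group of peaks at the locus lies next to the stated gene position. These are the 250 bases before the RefSeq start of the gene (GRCm38.p6, chromosome 13, plus strand, read 5′ to 3′). Their coordinates are not given, since they belong to another assembly than the peaks, and no peak was placed on them. Capitals mark CCAAT boxes in either orientation and the E-box.

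Klf6 promoter: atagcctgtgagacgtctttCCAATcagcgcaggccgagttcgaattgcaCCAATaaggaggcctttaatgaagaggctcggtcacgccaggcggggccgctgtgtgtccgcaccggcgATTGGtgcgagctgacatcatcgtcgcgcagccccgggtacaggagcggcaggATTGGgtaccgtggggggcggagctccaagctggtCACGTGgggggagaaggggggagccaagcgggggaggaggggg

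The sequence was rich in G and C, at 64.8%, against a median of 52.4% over 32851 RefSeq promoter windows of the same length, of which 17.7% were at least as rich. It held 21 CpG dinucleotides, against a median of 6. The CCAAT box, the binding letters of the factor NF-Y, was present 4 times, 2 as CCAAT and 2 as its reverse complement ATTGG. At least 1 copy stood in 33.8% of the promoters and 4 or more in 0.84%. The E-box CACGTG, letters bound by basic helix-loop-helix proteins, occurred 1 time, 43 to 38 bases before the start, and was present in 6.02% of promoters. The GC box GGGCGG occurred 1 time and was present in 32.7% of promoters. The forkhead core TGTTTAC was not in these letters on either strand (3.17% of promoters held it), nor were the AP-1 letters TGANTCA (6.75%) or the TATA box TATAAA (12.4%). The CCAAT, GC and TATA boxes were searched for after the sequence had been seen. All motifs were searched on both strands, and no match overlapped a match of another motif.

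The 18 peaks had a median signal value of 19.04, a score with no stated scale, and ranged between 11.7 and 52.7. The quartiles were 15.5 and 23.8. In the whole list the median was 17.8 and the lowest value listed was 11.3. The locus thus held none of the very strong peaks of the list, which reached 391 elsewhere. Of the 18 peaks, 2 had signal values of 50 or more, or 11.1%, where the background over the whole list was 7.97%. A q-value of at most 0.001 was given to 11 of the 18, or 61.1%, against a background of 51.3%. Both shares rest on few peaks and were near the background.

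The strongest binding at the locus was a pair of peaks below the gene mark. The peak of highest signal spanned 5844337 to 5844796 on chromosome 13. Its signal value was 52.7, and it ranked 2085 in the whole list and 92 among the 1468 peaks of its chromosome. Its neighbour, from 5844844 to 5845303, had 52.5 and ranked 2102 in the list. The summits of the pair were 507 bp apart, 47 bp separated the peak edges, and the ratio of the signal values was 1.003. They lay 15.4 and 14.9 kb below the gene mark, the upstream side under the orientation given above. Both carried the lowest q-value of the list, 0.00014, which 3564 peaks share. Among the 2491 pairs of neighbouring summits less than 1000 bp apart in the list, 33 had both signal values at 50 or more, a background of 1.32%. The pair was picked as the 2 highest peaks of the window, and the limit of 50 lies just under both. The share is thus a description and not a test. The median ratio of the higher to the lower signal value over these 2491 pairs was 1.58. Those pairs were not picked as the highest peaks of a window, so setting 1.003 beside 1.58 is also only a description. The pair was well above the other peaks of the locus, and its stronger peak was 1.61 times as high as the third of the window.

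**Figure D1:**
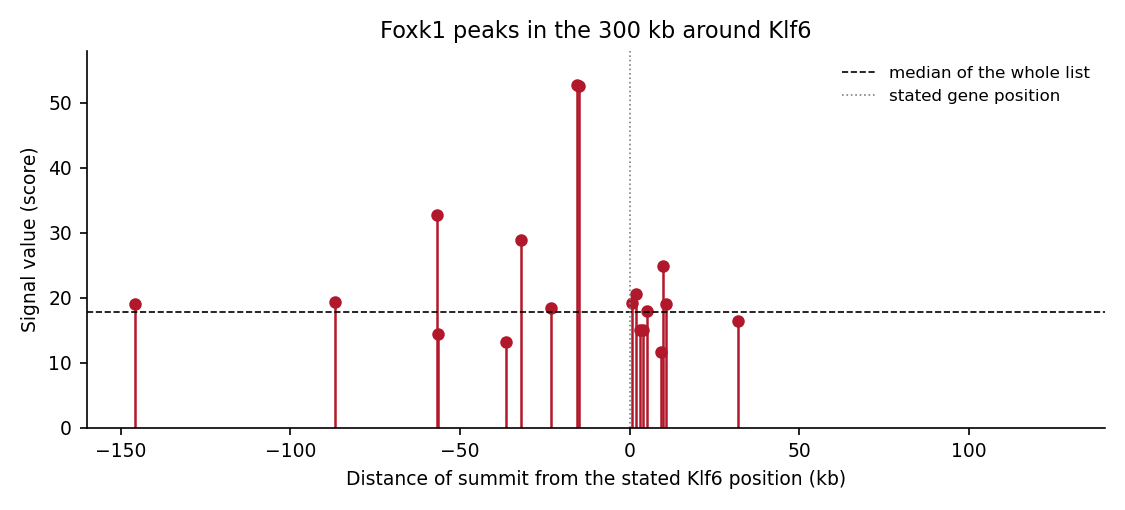
Each line is 1 of the 18 Foxk1 peaks, placed by the distance of its summit from the stated Klf6 position in kb (horizontal axis, lower coordinates to the left), with its signal value as a score (vertical axis). The pair at 52.7 and 52.5 stands about 15 kb to the left of the mark, 8 peaks between 11.7 and 24.9 crowd just right of it, and no peak lies beyond 32.1 kb on the right.

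Nearest to the gene mark lay 8 peaks that followed one another closely. They made up 44.4% of the peaks of the window and spanned 10.05 kb between the first summit at 5860783 and the last at 5870837. All 8 summits were at higher coordinates than the mark, by 0.78 to 10.8 kb, a range that the rounding of the mark can shift by several kb. The gaps between neighbouring summits had a median of 1082 bp and ranged between 439 and 4207 bp. The 8 peaks fell into a lower subgroup of 5 and an upper subgroup of 3, parted by the gap of 4207 bp.

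The lower subgroup began with the peak from 5860553 to 5861012, whose signal value was 19.2. The peak from 5861501 to 5861960 followed with 20.6. The next 3 summits, at 5863069, 5863939 and 5865109, had signal values of 15.05, 15.1 and 17.9. Signal values in this subgroup thus differed little and stayed near the median of the list. The upper subgroup held the strongest and the weakest of the 8, side by side. The peak from 5869525 to 5869984 had a signal value of 24.9, and the one before it, with its summit at 5869316, had 11.7, close to the lowest value listed. This peak also had the highest q-value of the locus, 0.0075. These 2 peaks overlapped by 21 bp, so they cover some of the same bases. The last of the 8 ran from 5870607 to 5871066, with a signal value of 19.0.

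**Figure D2:**
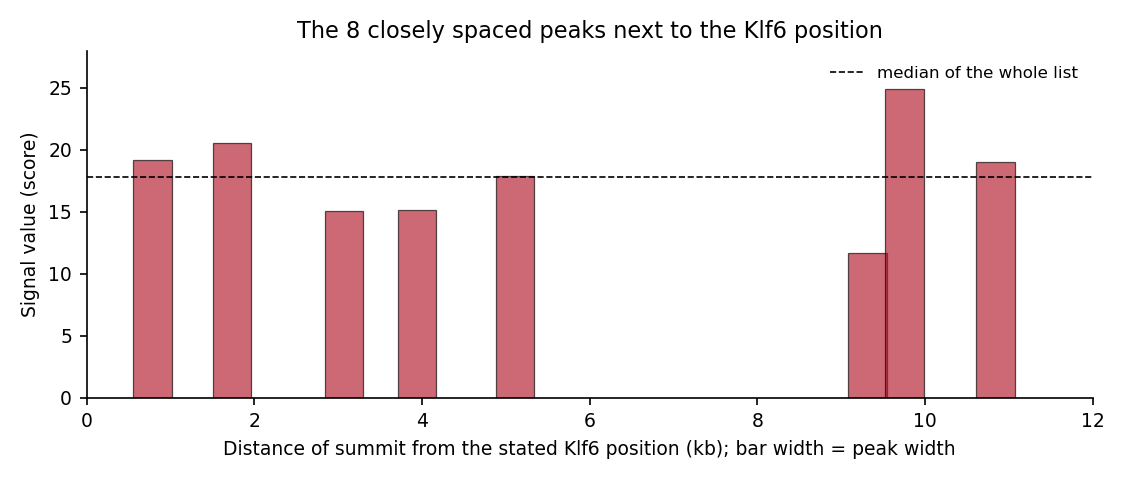
Bars are the 8 peaks next to the stated Klf6 position, placed by summit distance in kb (horizontal axis), as wide as the peaks (460 bp) and as high as their signal value, a score (vertical axis). A subgroup of 5 with signal values between 15.05 and 20.6 is followed, after 4207 bp, by a subgroup of 3 with values between 11.7 and 24.9.

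The remaining 10 peaks were the strong pair, 7 peaks farther below the mark and 1 above it. Their median signal value was 19.3, against 18.5 for the 8 closely spaced ones. A peak from 5802900 to 5803359, 56.9 kb below the mark, had the third-highest signal value of the locus, 32.7. It overlapped its neighbour with the summit at 5803407, whose signal value was 14.4, by 183 bp. The fourth-highest peak ran from 5827884 to 5828343, 31.9 kb below the mark, with a signal value of 28.9 and rank 6701 in the list. The peak before it, with its summit at 5823577, was weak, at 13.2. Between this place and the strong pair lay a summit at 5836835 with a signal value of 18.4.

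At the outer edges the peaks were isolated. The lowest-lying one, from 5713937 to 5714396, was 146 kb below the mark and had a signal value of 19.1. The next, from 5772989 to 5773448, had 19.4, and the gap of 59.1 kb between these 2 summits was the widest inside the window. The single peak above the group of 8 had its summit at 5892059, 32.1 kb above the mark, with a signal value of 16.5. No peak followed it for 117 kb, so that the last 108 kb of the window were empty in this list. Just outside the window, the last peak below it had its summit at 5687938 and a signal value of 12.8, and the first above it had its summit at 6009088 and 16.8.

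By rank in the whole list, the 18 peaks were spread widely. The highest was passed by 7.20% of all peaks and the lowest by 94.4%. A signal value at or above the list median was held by 12 of the 18, and by 5 of the 8 closely spaced peaks. Overlap of neighbouring peaks was seen in 2 of the 17 neighbouring pairs, where the background over the list was 2.63%. All peaks of the list had the same width of 460 bp, so overlap means summits less than 460 bp apart. It therefore restates the close spacing at the locus, and it rests on only 2 pairs.

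Peaks were denser in the Klf6 window than around it. The window held 60.0 peaks per Mb, against 20.0 in the surrounding 2 Mb (40 peaks in 1 Mb on each side), a ratio of 3.0. Over chromosome 13 the density was 12.2 per Mb, a ratio of 4.91, and over chromosomes 1 to 19 and X it was 10.98, a ratio of 5.46. The window was chosen with its peaks known, so these ratios describe it and no test was made. Without the 8 closely spaced peaks, the ratio to the surrounding 2 Mb was 1.67.

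Density fell with distance from the gene mark, but not evenly. Within 25 kb of the mark on either side there were 11 peaks, or 220.0 per Mb. From 25 to 50 kb there were 3 (60.0 per Mb), of which 2 lay below the mark. Another 3 lay between 50 and 100 kb (30.0 per Mb), all below it. Between 100 and 150 kb there were 2, or 20.0 per Mb. From 150 to 500 kb the density was 31.4 per Mb, with 14 of its 22 peaks above the mark. The 300 kb directly above the window held 15 peaks, nearly as many as the window, and the 300 kb directly below it held 8. The part of the 2 Mb closest in peak number to the locus was thus the stretch that follows it.

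The highest peak at Klf6, at 52.7, was weaker than the highest of the surrounding 2 Mb. That one lay from 6192809 to 6193268, 333 kb above the mark, with a signal value of 75.6 and rank 897 in the list. A value of 50 or more was found for 2 of 18 peaks in the window, against this 1 of 40 (2.50%) in the surroundings. The 2 in the window were the strong pair, with summits 507 bp apart and values of 52.7 and 52.5, just over the limit. The surroundings also held a peak at 47.5, just under it. Signal values were known when the locus was chosen, so these comparisons are descriptions and no test was made. The median signal value was 19.04 in the window and 16.7 in the surroundings, a difference of 2.39. That difference turned to -3.90 among peaks at or above the list median and to -3.24 among those with a q-value of at most 0.001, so its direction depends on the weak peaks.

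**Figure D3:**
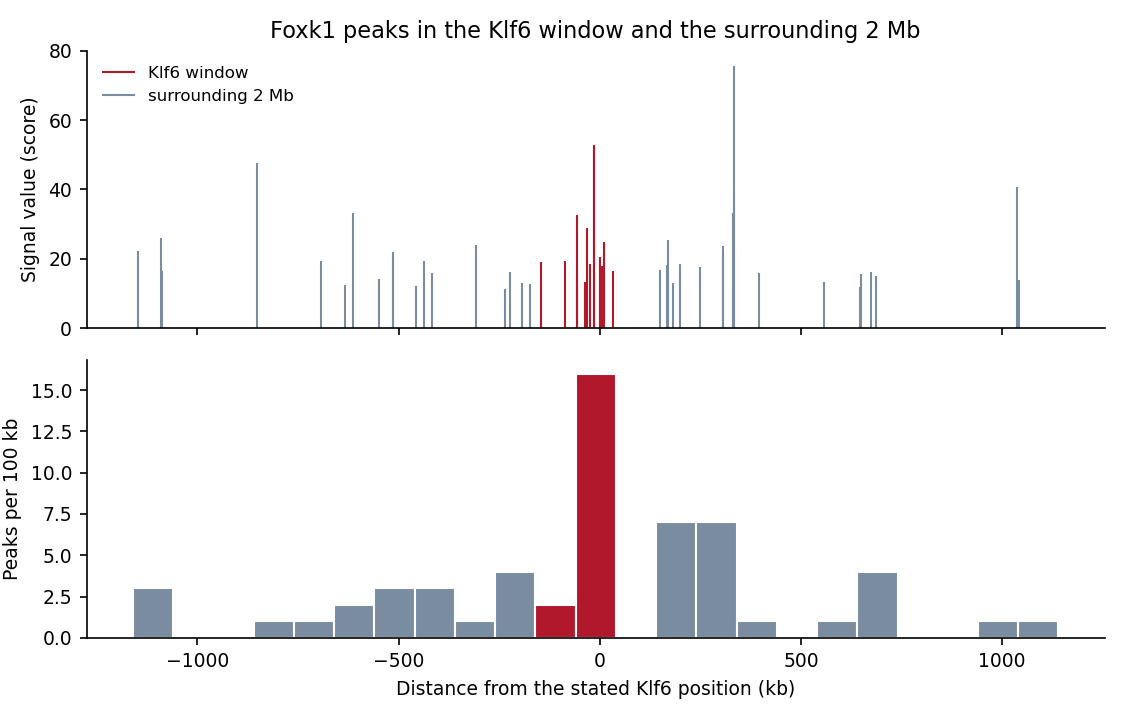
The upper panel gives the signal value of each peak (score, vertical axis) and the lower panel the number of peaks per 100 kb, both against distance from the stated Klf6 position in kb, with the 300 kb window in red and the surrounding 2 Mb in grey. The fullest 100 kb, with 16 peaks, is at Klf6, while the highest peak, at 75.6, stands 333 kb to its right.

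Peaks at the locus were closely spaced. Another summit within 2000 bp was found for 12 of the 18 peaks, or 66.7%, against 12 of 40, or 30.0%, in the surrounding 2 Mb, and the background over the whole list was 25.8%. The median distance to the nearest summit was 0.948 kb in the window, 12.5 kb in the surroundings and 8.89 kb in the list. Of the 12, 8 belonged to the group next to the gene mark and the others were the strong pair and the overlapping pair at 56.9 kb.

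Set against windows of the same size over the genome, the locus was among the fuller ones. Of 8795 windows of 300 kb, 107 held 18 or more peaks, a background of 1.22%, and the mean was 3.29 per window. Among the windows with at least 1 peak the share was 1.86%. On chromosome 13, 3 windows held more, with 23, 20 and 19 peaks, and of the 7 windows with at least 18 peaks the other 4, the Klf6 window among them, held exactly 18. The peaks of the locus were concentrated in 100 kb, from 5800001 to 5900000, which held 16 of the 18. This was the fullest of the 1203 windows of 100 kb on chromosome 13 and the fourth of 26360 in the genome, of which 4 held at least 16 peaks (0.0152%). That window was picked as the fullest of the locus, and its rank depends on where the windows start. A window edge between the strong pair and the closely spaced peaks at the gene mark would part these 16. Shifted windows of 100 kb were not counted.

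**Figure D4:**
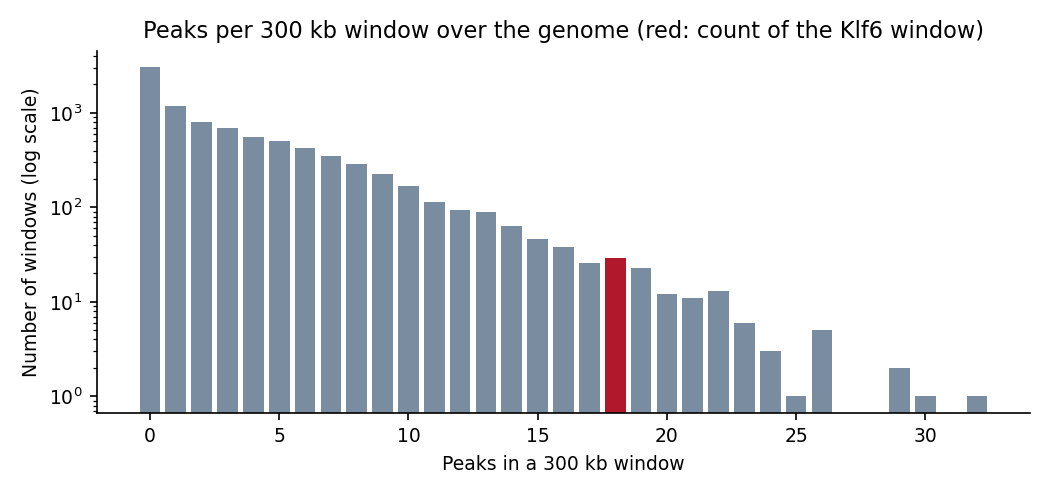
Bars give the number of 300 kb windows of the genome (vertical axis, log scale) by the number of Foxk1 peaks they hold (horizontal axis), with the count of the Klf6 window in red. The Klf6 window, with 18 peaks, lies in the right tail, and 78 windows hold more, up to 32.

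The 3 windows of 100 kb that held more peaks than the one at Klf6 also had higher highest signal values. The window at Klf6 had a highest signal value of 52.7 and a median of 18.7, and 2 of its peaks reached 50. The window on chromosome 19 from 5800001 had 20 peaks, a highest value of 124 and a median of 21.5, with 5 at 50 or more. The one on chromosome 11 from 86400001 had 18 peaks, a highest value of 174 and a median of 23.2, with 3 at 50 or more. The one on chromosome 17 from 80100001 had 17 peaks, a highest value of 86.0 and a median of 19.9, but only 1 at 50 or more, fewer than at Klf6. The medians lay closer together than the highest values.

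At a joining limit of 5000 bp, few groups of peaks in the list were as large as the 8 next to the gene mark. The highest signal value of these 8 was modest. When summits less than 5000 bp from the next were joined into runs, the list gave 22273 runs, of which 13 (0.0584%) held 8 or more peaks, and the run at Klf6 was the only one on chromosome 13. Among these 13 runs its highest signal value, 24.9, was the lowest. The others had highest values between 33.3 and 156, the median over all 13 was 79.03, and 9 of the 13 held a peak with a signal value of at least 50. The median signal value inside the run at Klf6 was 18.5, and 3 of the 13 runs had a lower one. At 10.05 kb it was also shorter than most, since the median span was 13.99 kb. The limit of 5000 bp was chosen after the peaks had been seen, and the strong pair at 52.7 and 52.5 lay 15.7 kb from the run and was not joined to it. The widest gap inside the run at Klf6 was 4207 bp, so a limit of that size or smaller would split it into its lower and upper subgroups. No other limit was run, so the count of 13 runs and the place of Klf6 among them hold for 5000 bp only.

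**Figure D5:**
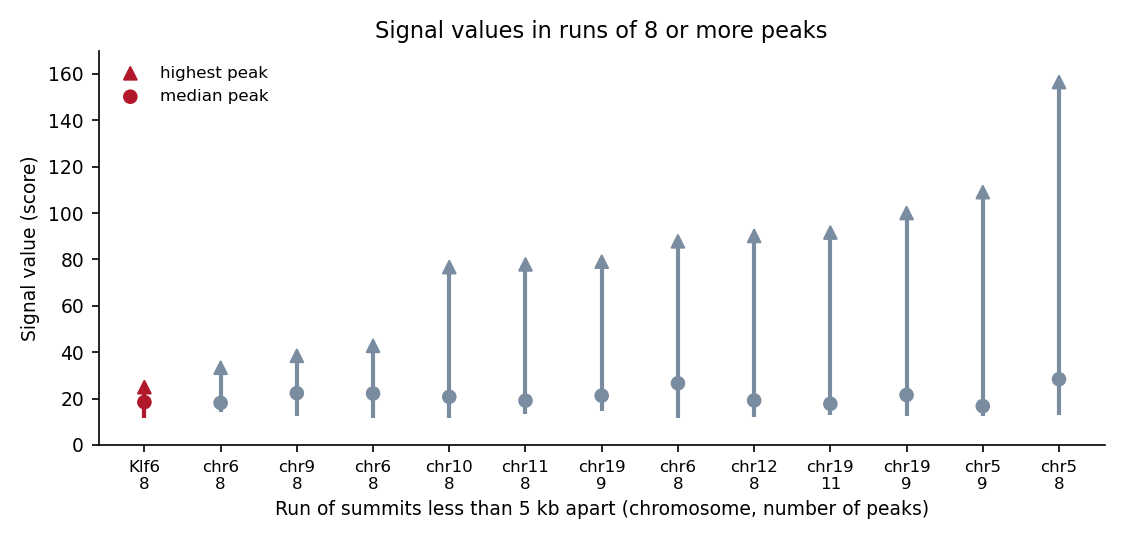
For each of the 13 runs of 8 or more peaks with summits less than 5000 bp apart (horizontal axis, chromosome and number of peaks), the line spans the lowest to the highest signal value, the triangle is the highest and the circle the median (vertical axis, score). The run at Klf6, in red, has the lowest highest value, 24.9. Its median of 18.5 lies within the range of the medians of the other runs, 16.7 to 28.3, and 3 of the 13 runs have a lower one.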

How the data were processed

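The submitters' processing notes name Bowtie and the mm9 build, and per the file headers the deposited list holds Foxk1 peaks against input. The peak caller, its settings and any pooling of libraries are not stated in those sources. For each peak the authors deposited a signal value, which is a score of unstated scale, and a q-value on a linear scale between 0.00014 and 0.00995. Libraries were grouped by the antibody label, and input by title.

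Summits (1-based) between 5.7 and 6.0 Mb of chromosome 13 were kept. Peaks were counted, ranked by signal and compared by description with 1 Mb on each side and with windows starting at multiples of 300 or 100 kb, up to the last summit of chromosomes 1 to 19 and X. Chromosome length was the highest peak end. The members and all lists and limits were chosen with earlier results of these data known. The naming rule was the 10 peaks of highest signal, and the other 8 are given by summit. The planned search at summits and count of Krüppel-like genes near peaks were not run, since an mm9 genome and annotation were not used here. Promoter letters came from RefSeq (GRCm38.p6). Counting was tested on made-up positions. Python 3.11.15, numpy 2.4.6, pandas 2.3.3, scipy 1.17.1 and matplotlib 3.10.9 were used.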

Additional observations from a re-analysis of the deposited data

How the results depend on the processing

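The ratio of peak density in the Klf6 window to that in the surrounding 2 Mb was 3.0 and stayed above 1 in all alternatives run, between 1.67 without the run of 8 peaks, an alternative chosen after seeing the data, and 4.44 among peaks at or above the list median. Merging summits under 2000 bp apart gave 2.02, and windows of 200 and 400 kb gave 4.25 and 3.79. The window was chosen with its peaks known and all alternatives used the same list, so they are not independent support for a ratio above 1. The difference in median signal value, 2.39, reversed to -3.90 among peaks at or above the list median and to -3.24 among those with q up to 0.001, both of which drop weak peaks; it kept its sign in the other 3 alternatives, between 2.61 and 3.19. The share of 300 kb windows with at least 18 peaks was 1.22%, 1.02% with windows shifted by 150 kb and 1.86% among windows with at least 1 peak, where empty windows leave the denominator. The shifted windows cut the locus between the strong pair and the run of 8 peaks, and no shifted window there reached 18. The 1.02% thus counts windows elsewhere and does not show that the locus kept its place. No paired analysis was possible because the list holds no value per replicate, and no library could be left out. Depth is unknown, so a stretch without peaks had none past the authors' threshold, and binding below it would not be seen.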

Other observations

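A second group of peaks lay above the window. Of 7 peaks between 6100001 and 6200000 on chromosome 13, 4 had summits within 2.47 kb, at 6190567, 6191346, 6192439 and 6193039, with signal values of 11.4, 33.3, 39.7 and 75.6. The run of 8 at Klf6 had a median of 18.5, against 36.5 for these 4. These 4 were picked as the run with the highest peak of the surrounding 2 Mb, so this comparison is a description only. A further 2 summits, at 6165285 and 6166517, had signal values of 23.8 and 21.6. Below the window the strongest peak had its summit at 5007610, with a signal value of 47.5 and no other peak within 5000 bp. These places are given by position, since the list names no gene for them.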
